A study of Rattus norvegicus with 6 samples.

Results

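Adenylyl cyclases make cyclic AMP from ATP. The 8 genes described here are Adcy1, Adcy2, Adcy3, Adcy5, Adcy6, Adcy7, Adcy8 and Adcy9, taken by gene name from the deposited FPKM table. They are 8 of 22536 genes in all, and they were chosen with earlier results of these data known. All rats were male: 3 controls and 3 that had painful diabetic neuropathy (PDN), with 1 sequenced library per rat. The labels give sensory neuron as the tissue, and the series title speaks of dorsal root ganglion, where the cell bodies of sensory neurons lie. No source used here gives the strain, the age or the way diabetes was induced, and the labels name no further treatment for either group.

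All membrane adenylyl cyclases are switched on by the G protein alpha subunit Gs. They differ in what else acts on them. Adcy1 and Adcy8 encode enzymes that calcium and calmodulin stimulate, and the Adcy3 enzyme is usually grouped with them. The enzymes of Adcy5 and Adcy6 are inhibited by calcium, those of Adcy2 and Adcy7 are stimulated further by G beta-gamma, and that of Adcy9 stands apart and responds poorly to forskolin. In sensory neurons, cyclic AMP acts through protein kinase A (PKA), the exchange factor EPAC and HCN channels, and it lowers the threshold of nociceptors, while opioid, cannabinoid and GABA-B receptors hold its synthesis down through Gi.

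The values are FPKM, fragments scaled to transcript length and library size. The depth of each library is not stated. The second deposited table, whose making is unknown, sums to 573396748 to 684759626 per library, and its ratio to FPKM would correspond to 51857383 to 62787267 fragments only if that ratio is the library size, which could not be checked. In each library 13093 to 13286 genes reached an FPKM of 1. Of 22 sensory neuron markers 21 were found by name, all 21 passed the expression filter described with the levels, and their summed level was 8873 to 9852 FPKM in controls and 8747 to 9670 in PDN. Markers of other cells were present too, and 2 libraries were rich in skeletal muscle RNA. The 10 muscle markers found by name, of 13 listed, summed to 653 FPKM in control 2 and 207 in PDN 3. PDN 1 held some as well, at 38, against 3.50 to 4.37 in the other libraries. Only FPKM levels are set side by side between genes, since they are per length. In whole tissue, fewer cells of a type and less RNA per cell cannot be told apart.

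All 8 genes were expressed at moderate levels, and no single isoform dominated. Averaged over the 6 libraries, Adcy5 stood at 11.7 FPKM, Adcy1 at 11.0, Adcy3 at 10.9, Adcy9 at 9.37, Adcy2 at 7.16, Adcy7 at 7.13, Adcy6 at 6.34 and Adcy8 at 4.46. The median over the 13282 genes that entered the test was 9.35 FPKM, so the family straddles the middle of the expressed genes. Each of the 8 passed the expression filter, which asked for 1 FPKM or more in 3 or more libraries. The remaining members of the enzyme family were low: Adcy4 was at 0.698 to 0.898 FPKM and Adcy10, the soluble bicarbonate-sensitive cyclase, at 0.111 to 0.494, so both stayed below the filter and have no test.

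**Figure D1:**
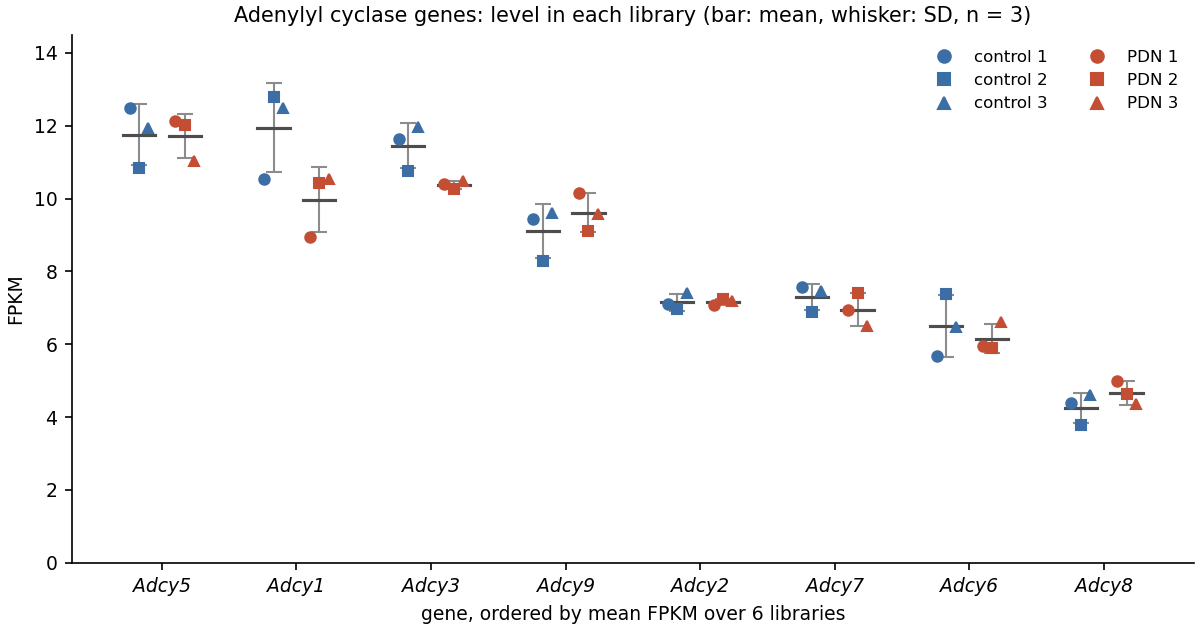
FPKM of the 8 adenylyl cyclase genes in each library, with genes ordered by their mean over all 6 libraries. Blue points are controls, red points are PDN, the marker shape gives the replicate number, horizontal bars are group means and whiskers are the SD (n = 3). As deposited, Adcy1 and Adcy3 are the 2 genes whose PDN points all lie below the control points, and upper-quartile scaling ends this for both.

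The order of the levels was the same in every library at 3 of its 7 steps. Adcy3 lay above Adcy9, Adcy9 above Adcy2 and Adcy6 above Adcy8 in 6 of 6 libraries. For each of these steps the exact two-sided sign-flip permutation test over the libraries gave p = 0.03125, which is the smallest it can give with 6 libraries, and 0.0729 after Benjamini-Hochberg adjustment over the 7 steps. The other steps did not exceed the spread between libraries. Adcy5 exceeded Adcy1 in 4 of 6 libraries (exact permutation p = 0.313), Adcy1 exceeded Adcy3 in 4 of 6 (p = 1), Adcy2 exceeded Adcy7 in 3 of 6 (exact permutation p = 0.781) and Adcy7 exceeded Adcy6 in 4 of 6 (exact permutation p = 0.125). Adcy5, Adcy1 and Adcy3 held the 3 highest ranks in 5 of 6 libraries without a fixed sequence among them, and in PDN 1 Adcy9 ranked above Adcy1. Adcy2, Adcy7 and Adcy6 took the lower middle, and Adcy8 was lowest in every library.

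No adenylyl cyclase gene passed the adjusted threshold between PDN and control. Of the 8 genes, 0 had a Benjamini-Hochberg adjusted p under 0.05 in limma, where 0% of the 13282 genes tested did, and the adjusted p-values of the 8 genes ran from 0.9986 to 0.9998. Adcy1 was the 1 gene of the 8 with an unadjusted p under 0.05, against 4.72% of all genes tested. Estimates were higher in PDN for 3 genes and lower for 5, with a median log2 difference of -0.03, beside -0.02 over all genes tested. The groups did not overlap in 2 of the 8 genes, Adcy1 and Adcy3, against 9.93% of all genes tested. In both the PDN libraries were the lower ones, which was so in 6.24% of all genes. This separation depends on the scaling between libraries: it held for 1 gene, Adcy1, after median-of-ratios scaling, where 9.83% of all genes did not overlap, and for 0 of the 8 after upper-quartile scaling, where 9.65% did not.

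**Figure D2:**
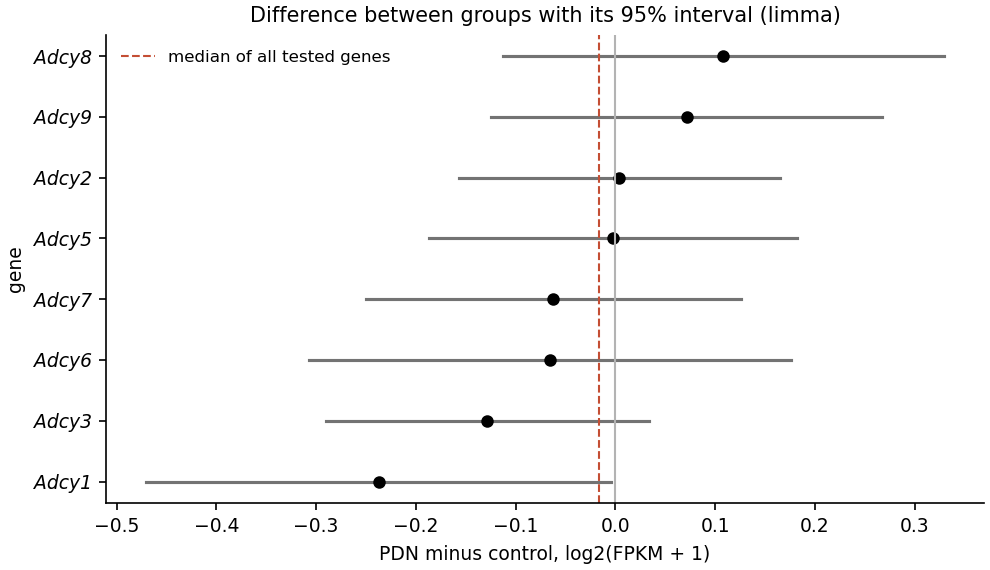
Difference between PDN and control in log2(FPKM + 1) for each gene, with the 95% interval from limma. The dashed line marks the median of all tested genes (-0.02), and the interval of Adcy1 (-0.471 to -0.00434) is the one that does not reach 0 before adjustment.

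Among the calcium-stimulated enzymes, Adcy1 showed the largest difference of the 8 genes. Adcy1 (ENSRNOG00000059479, chromosome 14, 87312203 to 87421659 as the file gives it, with no build stated) was at 10.6, 12.8 and 12.5 FPKM in controls 1 to 3 and at 8.95, 10.4 and 10.5 FPKM in PDN 1 to 3. Controls 2 and 3 were high and PDN 1 was low, while control 1 lay only 0.0253 FPKM above PDN 3, so the groups were separated by almost nothing. After upper-quartile scaling they overlapped, with control 1 at 10.41 and PDN 2 at 10.48. The means were 11.9 ± 1.22 for controls and 9.97 ± 0.884 for PDN (SD, n = 3 each), a log2 difference of -0.24 ± 0.10 (SE). The unadjusted p was 0.0468 and the limma adjusted p 0.9986. Leaving out 1 library at a time gave estimates from -0.317 to -0.169, all negative. The sum of fibroblast markers was lower in PDN as well: 10 genes, none at 0 in every library, summed to 390 to 433 FPKM in controls and 338 to 376 in PDN. Not every marker went that way: Col1a1 and Col1a2 were highest in PDN 3, and Mfap5 and Pi16 in PDN 2. Over the 6 libraries Adcy1 had an r of 0.69 to the fibroblast sum. It also had an r of 0.69 to the sums of endothelial cells and of satellite glia, and of 0.78 to pericytes and smooth muscle. The groups overlapped in those other sums. To Schwann cells the r was 0.46, and to sensory neurons -0.52. The part of RNA from fibroblasts or other cells in the Adcy1 difference was not tested.

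Adcy3, first known as the cyclase of olfactory neurons, was also lower in each PDN library than in each control as deposited, but not after scaling between libraries. Adcy3 (ENSRNOG00000003999, chromosome 6, 28571351 to 28650148) was at 11.6, 10.8 and 11.96 FPKM in controls and 10.4, 10.3 and 10.5 in PDN. After median-of-ratios scaling control 2, at 10.50, lay below PDN 1, at 10.65, and the same was seen after upper-quartile scaling (10.62 and 10.66). The deposited PDN values were close together, and the means were 10.4 ± 0.111 for PDN and 11.5 ± 0.618 for controls (SD, n = 3 each). The log2 difference was -0.13 ± 0.07 (SE), the 95% interval ran from -0.290 to 0.0334, and the limma adjusted p was 0.9986. The sum of macrophage markers differed in the same direction as deposited, but its groups also overlap once the libraries are scaled. Their summed level over 12 genes found by name, of 13 listed, was 48.9 to 61.7 FPKM in controls and 36.5 to 48.3 in PDN. None of the 12 was at 0 in every library. As deposited, control 3, control 1 and control 2 were in that order the highest for both the markers and Adcy3. The lowest control sum was that of control 2 and the highest PDN sum that of PDN 1. Median-of-ratios scaling divides these by 1.03 and 0.977, and upper-quartile scaling by 1.01 and 0.976, which puts control 2 below PDN 1. Not every marker went that way: Cd163, C1qb, C1qc and Mrc1 were each highest in PDN 1. The part of macrophage RNA in the Adcy3 difference was not tested.

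Adcy8, the other enzyme that responds directly to calcium and calmodulin, had an estimate on the higher side. Adcy8 (ENSRNOG00000004890, chromosome 7, 105353913 to 105592804) was at 4.38, 3.79 and 4.60 FPKM in controls and 4.995, 4.62 and 4.36 in PDN. PDN 1 was highest and control 2 lowest, and the groups overlapped. The log2 difference was 0.11 ± 0.09 (SE), with a 95% interval of -0.113 to 0.329. Without control 2 it was 0.04, and without PDN 1 it was 0.07.

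The 3 calcium-stimulated genes together made up 26.6, 27.4 and 29.0 FPKM in controls and 24.4, 25.3 and 25.4 in PDN, so their sums did not overlap between the groups. They did not overlap after median-of-ratios scaling either, at 26.5 to 29.0 against 24.9 to 25.3, or after upper-quartile scaling, at 26.2 to 29.2 against 24.9 to 25.4. Separate sums were not special to this class: those of the calcium-inhibited genes Adcy5 and Adcy6 were 18.2 to 18.4 in controls and 17.7 to 18.1 in PDN as deposited, and they overlapped after both scalings. Adcy1 and Adcy3 carry the calcium-stimulated sum, while Adcy8 has its higher estimate in PDN. No test was made of this sum, as its members were grouped by role and Adcy1 and Adcy3 had been seen to be lower. No rate of such separation was computed for sums of other genes. Inside a library, the ratio of Adcy1 to Adcy8 was 2.41, 3.38 and 2.72 in controls and 1.79, 2.26 and 2.41 in PDN, and the highest PDN ratio reached just past the lowest control ratio. This ratio was chosen after its values were seen.

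For each of the enzymes inhibited by calcium the groups overlapped, and their genes mirrored each other across libraries. Adcy5 (ENSRNOG00000002229, chromosome 11, 68695839 to 68842320), a cyclase abundant in striatum and heart, was at 12.5, 10.9 and 11.9 FPKM in controls and 12.1, 12.03 and 11.0 in PDN. The log2 difference of Adcy5, -0.00 ± 0.08 (SE), had a 95% interval from -0.187 to 0.182, and the sign turned under median-of-ratios scaling. Adcy6 (ENSRNOG00000054757, chromosome 7, 140270692 to 140291620), its close relative, was at 5.68, 7.38 and 6.48 FPKM in controls and 5.95, 5.90 and 6.62 in PDN. For Adcy6 the log2 difference was -0.07 ± 0.10 (SE), and the 95% interval ran from -0.307 to 0.176. Without control 2 it was 0.02.

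Where Adcy5 was low, Adcy6 was high. Control 2 and PDN 3 had the 2 lowest levels of Adcy5 and the 2 highest of Adcy6, and control 1 had the highest Adcy5 and the lowest Adcy6. The sum of both genes stayed between 17.7 and 18.4 FPKM in all 6 libraries. Over the 6 libraries Pearson's r was -0.92 (exact permutation p = 0.00278) and Spearman's rho -0.94 (exact permutation p = 0.0167). Among the 28 pairs of members this was the smallest p, and it did not pass adjustment over the 28 pairs (0.0778 for r, 0.467 for rho). Without control 2 and PDN 3, the libraries farthest from the median of Adcy5, r was -0.82 over 4 libraries, and taking deviations from the group means it was -0.97 over all 6. Control 2 and PDN 3 are the libraries rich in muscle RNA. They also had the highest summed levels of 12 Schwann cell markers, at 4518 and 4390 FPKM against 3624 to 3811 in the others. The part of either cell type in the Adcy5 and Adcy6 pattern was not tested.

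**Figure D3:**
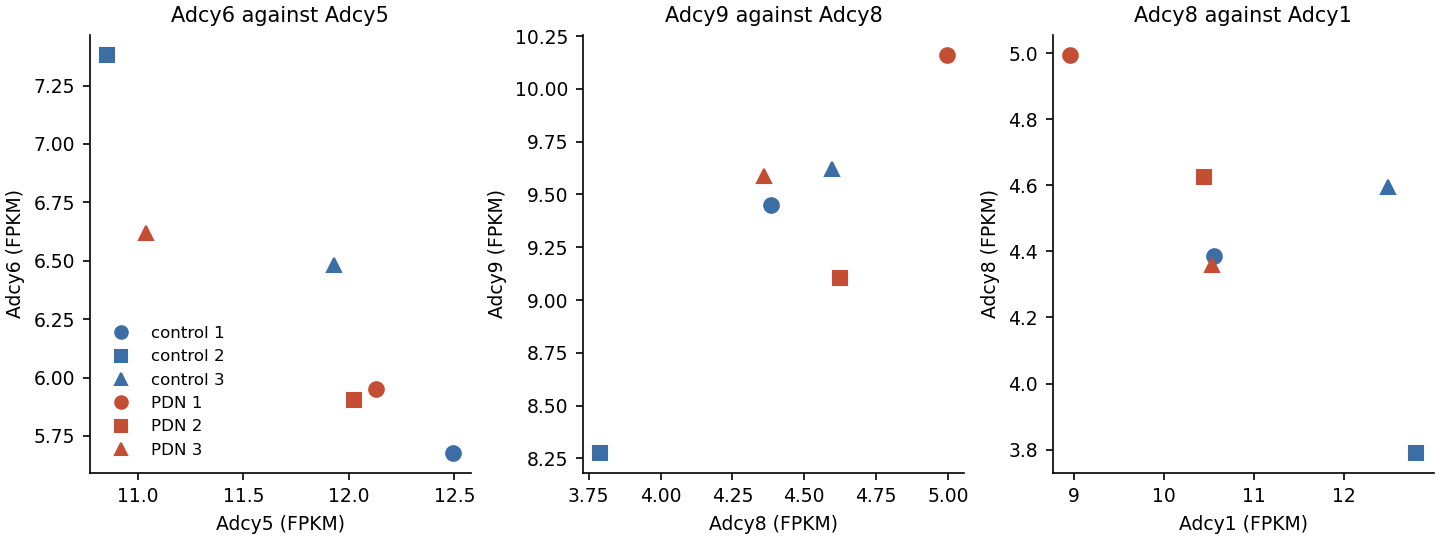
FPKM of 3 pairs of adenylyl cyclase genes, 1 point per library, blue for control and red for PDN, with the marker shape giving the replicate number. Axes do not start at 0. Libraries with more Adcy5 have less Adcy6 (r = -0.92), Adcy8 and Adcy9 are high together (r = 0.89) through control 2 and PDN 1, and Adcy8 is highest where Adcy1 is lowest.

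Of the genes of the enzymes stimulated by G beta-gamma, Adcy2 varied little. Adcy7 had a coefficient of variation of 5.88% over the 6 libraries, beside 5.54% for Adcy5. Adcy2 (ENSRNOG00000032150, chromosome 1, 37507276 to 37698390) was at 7.10, 6.96 and 7.40 FPKM in controls and 7.08, 7.24 and 7.19 in PDN. Its coefficient of variation over the 6 libraries was 2.12%, and 1.08% of the genes tested had a smaller spread within the groups on the log2 scale. The log2 difference was 0.00 ± 0.07 (SE), with a 95% interval of -0.157 to 0.165. Adcy7 (ENSRNOG00000014776, chromosome 19, 19704859 to 19727081), a cyclase of blood and immune cells as well as neurons, was at 7.56, 6.88 and 7.45 FPKM in controls and 6.94, 7.42 and 6.50 in PDN. The groups overlapped, and the log2 difference was -0.06 ± 0.08 (SE), with a 95% interval of -0.250 to 0.126. It was -0.02 without PDN 3, -0.04 without control 1, and -0.10 without PDN 2 or without control 2.

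Adcy9 (ENSRNOG00000049768, chromosome 10, 11392625 to 11512600), the widely expressed and divergent isoform, was at 9.45, 8.28 and 9.62 FPKM in controls and 10.2, 9.10 and 9.59 in PDN. Control 2 was low and PDN 1 high, as for Adcy8, and the groups overlapped. The log2 difference was 0.07 ± 0.08 (SE), its 95% interval ran from -0.125 to 0.267, and it was 0.01 without control 2 and 0.03 without PDN 1. Adcy8 and Adcy9 had an r of 0.89 over the 6 libraries (exact permutation p = 0.0333, adjusted 0.45) and a rho of 0.60 (exact permutation p = 0.242, adjusted 0.846). Without control 2 and PDN 1 the r was -0.48, so the relation rests on those 2 libraries. Adcy1 ran the other way, with an r of -0.74 to Adcy8 (exact permutation p = 0.0861, adjusted 0.45) and a rho of -0.77 (exact permutation p = 0.103, adjusted 0.719). Without control 2 and control 3 that r was -0.93 over 4 libraries. It was weaker, at -0.62, without control 2 and PDN 3, and at -0.59 for deviations from the group means over all 6. Pericyte and smooth muscle markers were highest in control 2, at 110 FPKM summed over 11 genes, and lowest in PDN 1, at 55.7, against 73.3 to 88.2 in the other libraries. Des, a gene of this list that skeletal muscle also expresses, made up 20.3 of the 110, and without it control 2 was at 89.8, PDN 1 at 52.9 and the others at 70.8 to 81.5. These are the libraries at both ends of Adcy8. Not every marker went that way: Kcnj8 was highest in PDN 3, Myh11 and Pdgfrb in control 1, and Cnn1 was lowest in control 1. Other cells had similar values. Adcy8 had an r of -0.97 to the pericyte sum, -0.85 to Schwann cells, -0.83 to satellite glia and -0.80 to endothelial cells. For Adcy9 these were -0.83, -0.63, -0.89 and -0.86. To sensory neurons the r was 0.39 for Adcy8 and 0.67 for Adcy9. The part of any of these cells in the pattern was not tested.

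**Figure D4:**
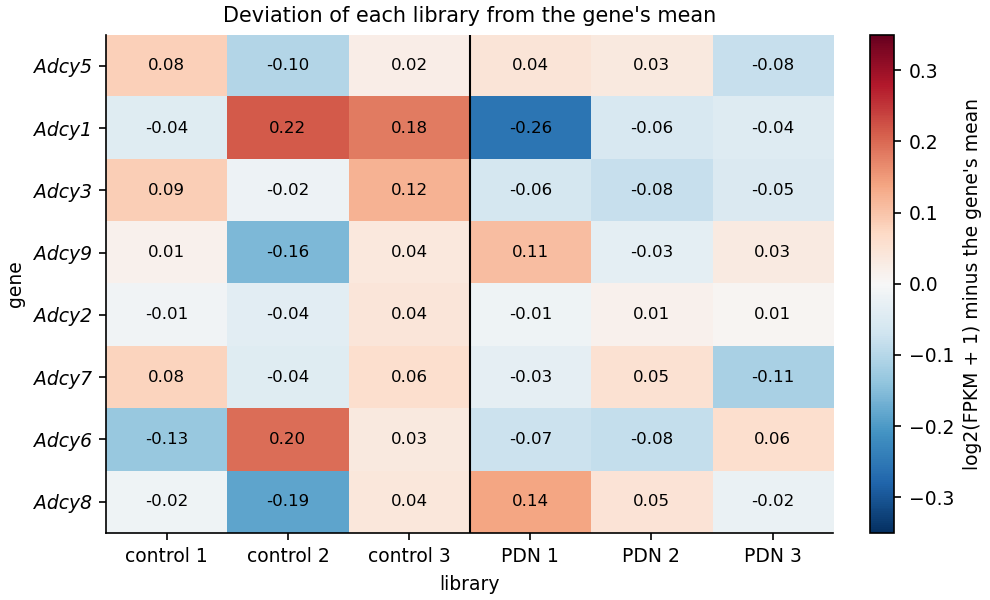
Deviation of each library from the gene's own mean in log2(FPKM + 1), genes in order of level, controls left of the line and PDN right of it. Control 2 stands high in Adcy1 and Adcy6 and low in Adcy8, Adcy9 and Adcy5, PDN 1 has the lowest Adcy1 (-0.26), and the row of Adcy2 is nearly flat.

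The promoter sequences of Adcy5 and Adcy2 are given because these genes mark the highest level and the steadiest level of the family. RefSeq's table for build GRCr8 held an entry for 5 of the 8 genes, and in these 2 the 250 bases end at the base before the annotated start of the gene. The build differs from the loci above, which come from the deposited file and name none. Sequences run 5′ to 3′ on the strand of the gene, and capitals mark the GC box GGGCGG or its reverse complement CCGCCC, a letter match bound in many promoters by SP-family factors.
Adcy5 promoter, chr11:79123344-79123593, minus strand: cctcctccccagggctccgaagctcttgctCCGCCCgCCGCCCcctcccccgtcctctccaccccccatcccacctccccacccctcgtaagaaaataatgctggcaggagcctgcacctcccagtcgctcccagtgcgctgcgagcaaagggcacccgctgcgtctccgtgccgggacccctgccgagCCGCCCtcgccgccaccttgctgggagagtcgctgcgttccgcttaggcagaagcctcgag
Adcy2 promoter, chr1:36203804-36204053, plus strand: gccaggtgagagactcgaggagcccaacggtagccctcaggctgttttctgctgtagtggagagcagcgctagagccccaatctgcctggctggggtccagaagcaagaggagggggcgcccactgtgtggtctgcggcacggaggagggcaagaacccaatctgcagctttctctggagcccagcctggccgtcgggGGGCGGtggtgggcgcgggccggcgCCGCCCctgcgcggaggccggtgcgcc

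Adcy5 held 3 such matches and Adcy2 held 2, and 30.5% of the 33469 RefSeq regions of the same length held at least 1. Neither region held the half-site of the cyclic AMP response element, TGACG or CGTCA, which 18.2% of all regions held, or the E-box CACGTG, which 5.59% held. The GC content was 70.0% for Adcy5 and 69.6% for Adcy2, beside a median of 51.2% over all regions. The RNA data hold no measurement at these regions, so the matches describe the letters only.

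The make-up of the family within each library does not depend on scaling between libraries. Of the summed FPKM of the 8 genes, Adcy1 took 15.3%, 18.9% and 17.4% in controls and 13.4%, 15.6% and 15.9% in PDN. Adcy8 took 5.60% to 6.39% in controls and 6.57% to 7.50% in PDN, and Adcy3 took 15.9% to 16.9% in controls and 15.3% to 15.8% in PDN. Adcy2 took 10.3% in each control and 10.6% to 10.8% in PDN. For Adcy8, Adcy3 and Adcy2 the shares of the groups did not overlap, while for Adcy1, Adcy5, Adcy6, Adcy7 and Adcy9 they did. No rate of such separation was computed for the shares of other genes. A share rises when the shares of other genes fall, so these are not separate results, and no test was made on them. The sum itself was 67.7 to 71.9 FPKM in controls and 66.3 to 67.0 in PDN, and after median-of-ratios scaling the sums overlapped, at 66.0 to 71.7 against 66.2 to 68.1.

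**Figure D5:**
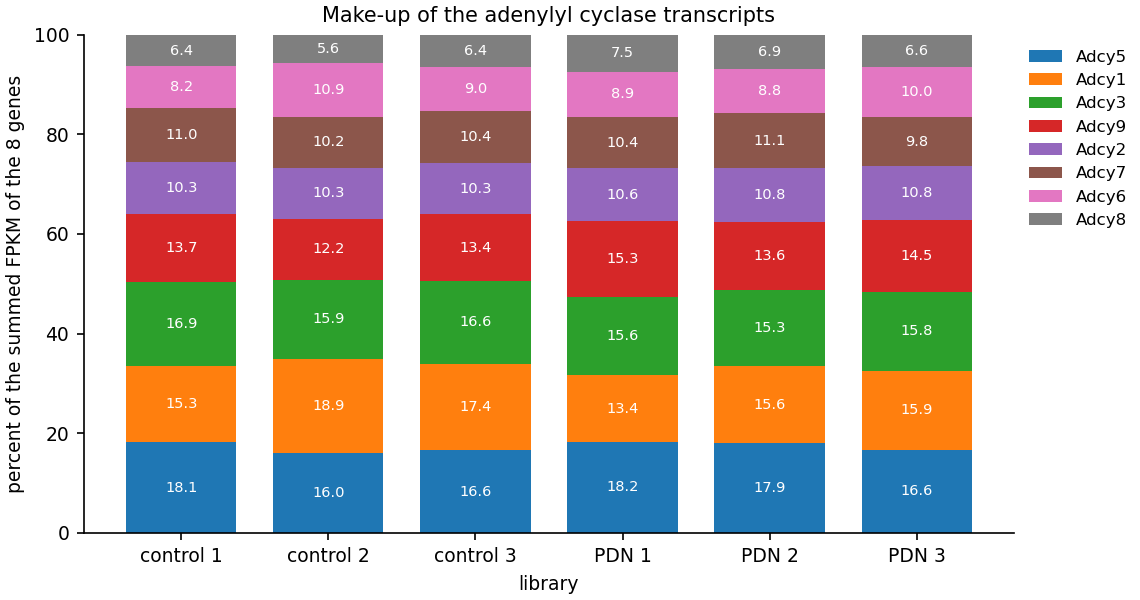
Percent of the summed FPKM of the 8 genes taken by each gene, 1 bar per library, controls at the left and PDN at the right. No gene takes more than 18.9% in any library, and the share of Adcy1 is lowest in PDN 1 (13.4%) and highest in control 2 (18.9%).

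Genes whose levels followed each member most closely over the 6 libraries were picked as the 2 with the highest Pearson r on the log2 scale among 11987 named genes. For Adcy1 they were Dhcr7, the last enzyme of cholesterol synthesis (r = 0.998), and the S100 protein gene S100a16 (r = 0.992), and 90 genes in all had an r over 0.95. Dhcr7 averaged 23.8 ± 1.35 FPKM over the controls and 21.6 ± 1.20 over PDN (SD, n = 3 each). For Adcy3 they were the lipid kinase gene Pi4kb (r = 0.994) and Adgre1 (r = 0.987), which encodes the macrophage marker F4/80 and was at 5.97 ± 2.91 FPKM in controls and 2.45 ± 0.467 in PDN. Adcy5 was followed by the neuronal RNA-binding protein gene Elavl4 (r = 0.994) and by Dnajc6, which encodes the clathrin-uncoating protein auxilin (r = 0.987). Adcy6 was followed by Gnpda1 (r = 0.999) and Ctdsp2 (r = 0.991), and Adcy8 by the tankyrase gene Tnks (r = 0.996) and the plasma membrane calcium pump gene Atp2b3 (r = 0.989). For Adcy2 they were Lats1 (r = 0.986) and Mastl (r = 0.982), for Adcy7 Stk32a (r = 0.994) and Zdhhc9 (r = 0.990), and for Adcy9 Wdr90 (r = 0.993) and Stk16 (r = 0.988). Each is the best of all those genes over 6 points that share libraries, so these r describe the pattern and carry no p.

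The rest of the cyclic AMP pathway was examined through 11 lists of 224 genes, of which 212 were found by name and 157 rows were tested. None passed the adjusted threshold in limma, where 0% of all genes did, and 0.594 was the lowest adjusted p. An unadjusted p under 0.05 was reached by 13 rows, 6 higher and 7 lower in PDN, or 8.28% against 4.72% of all genes tested. The lists were chosen with earlier results of these data known. The median log2 difference over the 157 rows was 0.01, beside -0.02 over all genes. The genes named from these lists had the smallest p of their list or the highest level, and their values are not changes.

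Upstream of the cyclases, 7 rows of G alpha subunits had 0 called, 5 with a higher and 2 with a lower estimate, and a median log2 difference of 0.05. Gnal, which encodes the Gs relative Golf, was at 69.7 ± 3.40 FPKM in controls and 82.6 ± 6.26 in PDN, and the main row of Gnas, which encodes Gs alpha itself, at 199 ± 17.8 and 223 ± 19.1 (SD, n = 3 each, as for the other genes of the pathway). A second row named Gnas did not exceed 1.18 FPKM. The 13 tested G beta and gamma genes had 0 called and a median of -0.03. Gng11 was at 4.61 ± 0.479 against 3.35 ± 0.639 FPKM in PDN, Gng12 at 3.55 ± 1.23 against 2.32 ± 0.444, and Gnb1, the most abundant, at 333 ± 12.4 against 339 ± 11.4. Of 22 calcium-linked and other regulators, 0 were called, with a median of 0.01. The protein kinase C gene Prkcb was at 35.8 ± 3.19 against 30.5 ± 1.31 FPKM in PDN, and Rgs2, which restrains G protein signalling and adenylyl cyclase, at 11.4 ± 0.467 against 10.3 ± 0.125.

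Receptors that act on the cyclases were also without a call. Of 15 tested Gs-coupled receptors 8 had a higher and 7 a lower estimate, with a median of 0.01. Gpr3, which raises cyclic AMP without a known ligand, was at 1.22 ± 0.0364 FPKM in controls and 0.734 ± 0.154 in PDN. Lgr4 had the highest level of that list, at 33.2 FPKM over all libraries. Of 28 tested Gi-coupled receptors 14 had a higher and 14 a lower estimate, with a median of 0.00. The cannabinoid receptor gene Cnr1 was at 7.19 ± 0.163 FPKM in controls and 9.88 ± 0.988 in PDN (limma adjusted p = 0.707). Cx3cr1, a macrophage receptor, was at 3.39 ± 0.901 against 1.45 ± 0.469 in PDN (limma adjusted p = 0.789), and the GABA-B receptor gene Gabbr1 had the highest level, at 137 FPKM over all libraries.

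Downstream, all 9 PKA subunit and inhibitor genes were tested, with 2 higher and 7 lower estimates, 0 called and a median of -0.05. The inhibitor genes Pkib (10.7 ± 0.592 against 9.15 ± 1.15 FPKM in PDN) and Pkig (17.1 ± 1.04 against 15.0 ± 2.002) had the smallest p, and Prkar1a the highest level, at 207 FPKM over all libraries. The 17 tested A-kinase anchoring proteins, which hold PKA near its targets, had 0 called and a median of 0.03. Among them Map2 was at 92.1 ± 12.8 against 108 ± 4.27 FPKM in PDN, Akap10 at 14.7 ± 0.417 against 13.6 ± 0.893, and Akap12, the most abundant, at 145 ± 19.3 against 149 ± 10.5. The 9 tested EPAC, Rap1 and cyclic nucleotide-binding genes had 0 called and a median of -0.02, with Popdc3 at 7.28 ± 0.932 against 8.47 ± 0.0976 FPKM in PDN and Rap1b at 86.1 ± 7.12 against 76.7 ± 7.54.

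Phosphodiesterases, which break down cyclic AMP, had 15 tested rows, 7 with a higher and 8 with a lower estimate, 0 called and a median of -0.00. The calcium- and calmodulin-stimulated Pde1c had the smallest p of all 11 lists and the highest level of its own, at 18.6 ± 0.618 FPKM in controls and 24.1 ± 1.07 in PDN (limma adjusted p = 0.594), and Pde1a, of the same subfamily, was at 5.65 ± 0.575 against 6.46 ± 0.223 in PDN. Of 18 tested genes of CREB and its targets, 12 had a higher and 6 a lower estimate, 0 were called and the median was 0.04. Per1, which CREB and the circadian clock both induce, was at 3.95 ± 0.698 FPKM in controls and 8.53 ± 2.86 in PDN, Bdnf at 7.31 ± 0.249 against 5.63 ± 0.436 in PDN, and the somatostatin gene Sst at 54.0 ± 2.56 against 60.5 ± 7.59. Of the other nucleotidyl cyclases 4 were tested, all guanylyl cyclase genes, with 0 called and a median of 0.09. Npr2, the receptor of C-type natriuretic peptide, was at 28.2 ± 1.05 against 30.8 ± 0.446 FPKM in PDN and Gucy1b1 at 2.70 ± 0.334 against 2.42 ± 0.486.

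With 3 libraries per group, the 95% intervals give the differences that the data leave possible for the 8 genes. The narrowest was that of Adcy2 and the widest that of Adcy6. The limma p-values set a difference between groups against the spread between rats within the groups, estimated with help from all genes tested. The depth per gene cannot be recovered from FPKM.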

How the data were processed

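The authors deposited 2 tables over 6 libraries: FPKM per gene, and whole numbers in a table named for read counts. Trizol RNA went into strand-specific libraries, per the labels' protocols. The aligner, quantifier, annotation and build were not given in the sources used here. As a deposited score, the whole-number table was not used as counts: 54.7% to 55.1% of its values over 1000 equal FPKM times genomic span times 1 constant per library (tolerance 0.001), as do 6 of the 8 adenylyl cyclase genes, so it is no independent measure. What these constants stand for could not be checked. FPKM keeps no fragment count per gene, so counting error is unknown.

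Genes that reached 1 FPKM in 3 or more libraries were tested as log2(FPKM + 1) in limma 3.58.1 (R 4.3.3) with an intensity trend and no covariate, adjusted over all 13282 genes by Benjamini-Hochberg with a threshold of 0.05. The pseudocount understates changes of low genes. The fit was tested on simulated data. Levels, correlations and motifs were computed in Python 3.11.15. Named genes are the 8 members, the 2 with the smallest p and the 1 with the highest level in each cyclic AMP list, and the 2 most alike for each member. Of these, 2 list genes are not reported here. The members and lists were chosen with earlier results of these data known. Alternatives were other pseudocounts (0.1 and 0.5), filters and scalings, robust variance, array weights, the whole-number table, a replicate block and leaving libraries out.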

Additional observations from a re-analysis of the deposited data

How the results depend on the processing

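Over 17 alternatives per gene, Adcy1, Adcy3 and Adcy7 kept a lower and Adcy8 and Adcy9 a higher estimate in PDN, and none of the 8 genes, and no gene of the 11 cyclic AMP lists, was called under any of them. The unadjusted p of Adcy1 was under 0.05 in 8 of the 17 and ran from 0.0111 to 0.144. Estimates near 0 changed sign. Adcy2 was at -0.00032 with array weights, at -0.0149 with both muscle-rich libraries (control 2 and PDN 3) left out, and between -0.013 and 0.0256 with 1 library left out. Adcy5 was at 0.0183 with median-of-ratios scaling, 0.0172 with upper-quartile scaling and 0.0198 in the whole-number table, and between -0.0545 and 0.0391 with 1 library left out. Adcy6 ran from -0.147 to 0.0166 with 1 library left out, and was above 0 only without control 2. Over all genes, the 0 calls became 1 without the filter, 1 with robust empirical Bayes, 2 in the whole-number table, 9 without control 2 and PDN 3, and 0 to 6 with 1 library left out. The cause of these changes was not tested.

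With a replicate block the counts of calls stayed at 0, and the unadjusted p of Adcy1 was 0.0111. The labels share replicate numbers between the groups. Deviations of same-numbered libraries correlated at 0.17, -0.12 and -0.086, and those of differently numbered libraries at -0.22 to 0.27. With 3 libraries per group, these values cannot show whether the numbers pair the rats. The 2 genes whose groups did not overlap became 1 with median-of-ratios and 0 with upper-quartile scaling, alternatives chosen after seeing the data. The number of rats, 3 per group, limits the precision.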
